A study of Mus musculus with 4 samples.

Results

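The 10 glycolysis genes examined here encode the glucose transporter Slc2a1 and 9 enzymes, namely Hk2, Aldoa, Tpi1, Gapdh, Pgk1, Pgam1, Eno1, Pkm and Ldha. They were taken by name, out of 21887 protein-coding genes on assembled chromosomes of GRCm38, and a peak belonged to a gene when it overlapped the annotated gene or the 5 kb on either side of it by at least 1 bp. The peaks came from ChIP-seq with an antibody to RNA polymerase II (Pol II) in primary mouse osteoblasts, with 1 antibody library and its input for untreated cells and the same pair for cells given OSS_128167. The labels call OSS_128167 an inhibitor of SIRT6, a chromatin deacylase, and its dose and duration are not known here. All samples came from young mice. Pieces of bone were cultured for 3 days, the adherent marrow stromal cells were passaged 3 times, and they then spent 3 days in osteogenic medium. The untreated samples carry the title WT osteoblasts and the others a title that names the compound, whereas the treatment field names the compound for all 4 samples, so the grouping rests on the titles. With 1 Pol II library per condition there was no replicate, and no difference between conditions could be tested.

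Glycolysis turns glucose into pyruvate in the cytosol, and lactate dehydrogenase can then reduce the pyruvate to lactate. Many of its genes are targets of HIF1A, a transcription factor that is stable when oxygen is low, and SIRT6 is known from mouse cells and tissues as a corepressor at such HIF1A targets, where it removes acetyl groups from histone H3. Differentiating osteoblasts are known to draw much of their energy from glycolysis with release of lactate. Whether SIRT6 repressed these genes in the present cells was not measured, because peak lists from single libraries give no level that can be compared between them.

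Pol II peaks were listed at 9 of the 10 glycolysis genes in the OSS_128167 library and at 0 in the untreated library. The gene without a peak was Aldoa. Gapdh, which encodes the enzyme that oxidises glyceraldehyde phosphate, was the most densely occupied, with 48.5% of the gene inside a peak. Tpi1 followed with 28.8% and Ldha with 16.6% when all listed peaks were counted, while the remaining 7 genes ranged from 0% to 6.23%. Those 3 genes held 5481 of the 7821 covered bases (70.1%).

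Among all protein-coding genes 46.7% had a peak under the same rule in the OSS_128167 list, so the list was permissive and a peak near a gene was common. Within the length range of the glycolysis genes, 3573 to 49430 bp, the share was 42.9% of 13025 genes. Each peak also carries the false discovery rate (FDR) that the authors gave it within its list, and a peak is called supported here when this is at most 0.05. All 9 genes had a supported peak, against 15.6% of protein-coding genes and 14.5% of those in the length range. The limit ran through a tie, since 1402 of the 6568 peaks at or under 0.05 had the same FDR of 0.04997. Pgk1 and Slc2a1 counted through such peaks, and with a limit of 0.049 the count was 7 of 10, against 13% of protein-coding genes. With a limit of 1e-05 Gapdh alone was left, while Ldha had peaks with an FDR of 1.14e-05 and 1.28e-05, just over that limit.

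In the untreated list 2.71% of protein-coding genes had a peak by the same rule, and 1.61% in the length range, so a count of 0 among 10 genes lay near this background. Supported untreated peaks were found at 0.142% of protein-coding genes. That list held 1694 peaks, against 40748 in the OSS_128167 list, and 6.43% of its peaks were supported, against 16.1%. Depth is unknown for both libraries. The untreated peak nearest to any of the 10 genes lay 137816 bp from Gapdh, so no untreated peak overlapped an OSS_128167 peak at these genes. The other series-wide check was of cell identity. Of 12 osteoblast markers 8 had an OSS_128167 peak and 6 a supported one, against 46.7% and 15.6% of protein-coding genes. Col1a1, a chain of type I collagen, was covered over 98.2%. Macrophage markers had a peak in 4 of 8 and a supported one in 2 of 8. Neuron markers had them in 5 of 8 and 2 of 8, and hepatocyte markers in 3 of 8 and 0 of 8. The macrophage marker Cd68 was covered over 81.6%, with a supported peak inside (FDR 5.34e-05). A further Cd68 peak (FDR 9.45e-19) lay in its flank over Eif4a1. The osteoblast markers Bglap, Ibsp, Alpl and Dmp1, which mark mineralising osteoblasts or osteocytes, lacked peaks both with and without OSS_128167. All other osteoblast markers had an OSS_128167 peak, but Phex and Spp1 had only 1 each, and neither was supported. The Phex peak lay inside the gene (fold 3.08, FDR 0.191) and the Spp1 peak in its flank (fold 2.05, FDR 0.753). In the untreated list Runx2 and Col1a2 alone of the osteoblast markers had peaks, the neuron marker Syt1 had 1, and macrophage and hepatocyte markers had 0. The part of other cell types in these results was not tested.

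**Figure D1:**
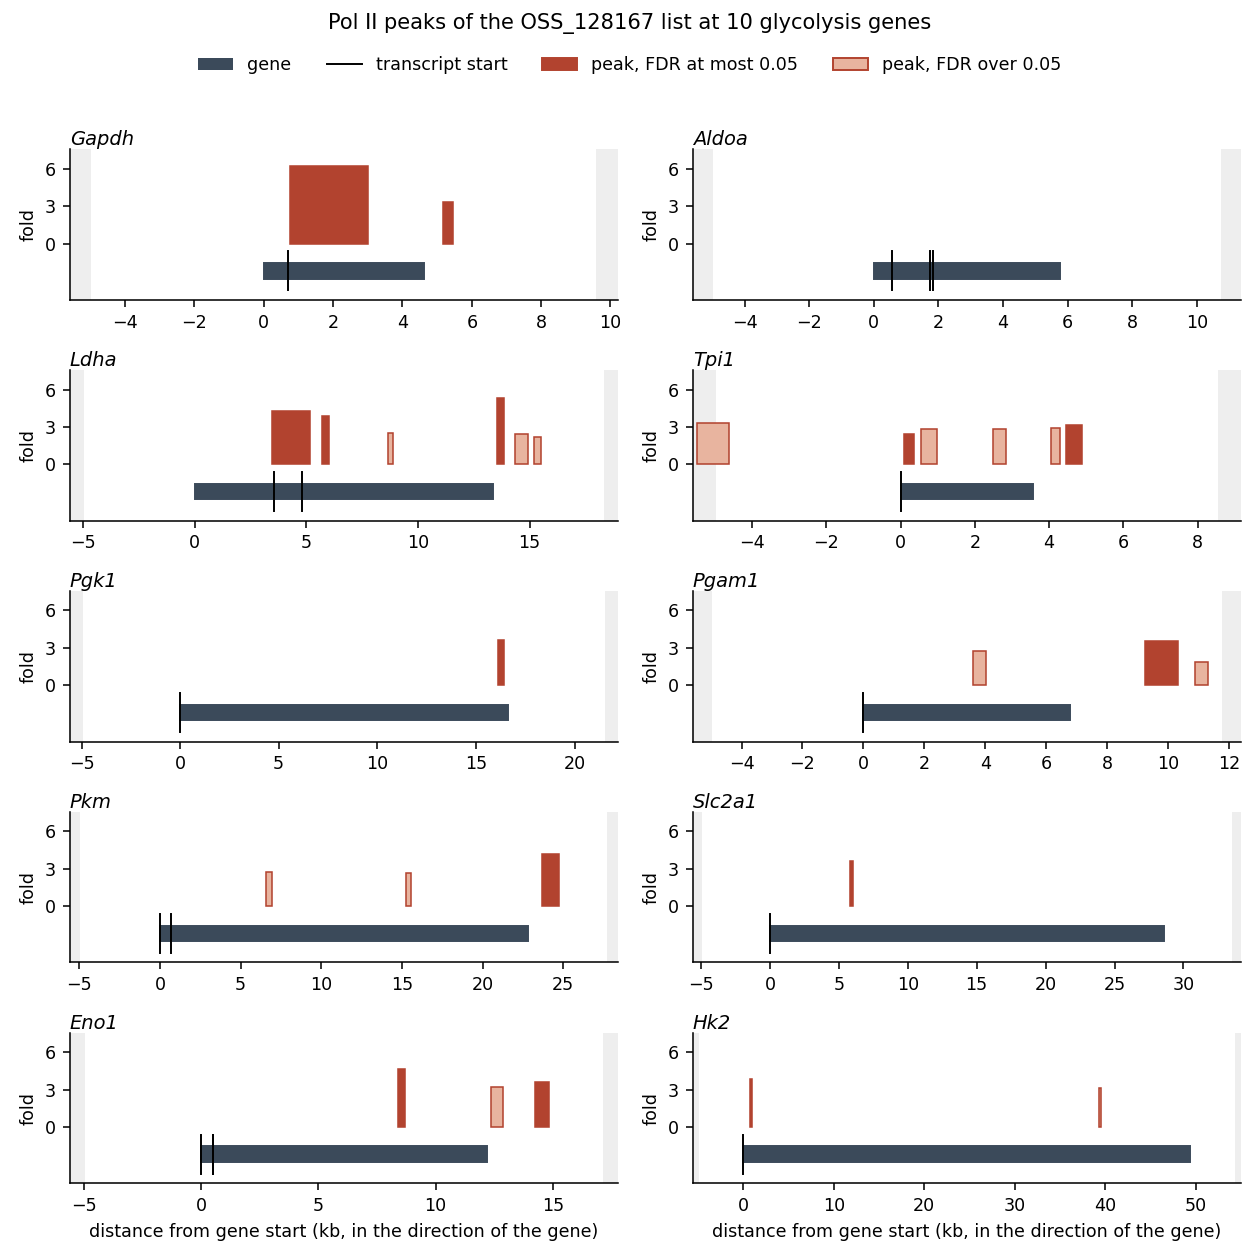
Pol II peaks of the OSS_128167 library at each of the 10 genes, drawn to scale. The x axis is the distance in kb from the annotated gene start in the direction of transcription, dark bars are genes, vertical lines are transcript starts, and each block is a peak whose width is its length and whose height is the authors' fold enrichment. Each panel has its own x scale, and grey edges lie beyond the 5 kb flanks. Aldoa has no peak, and Gapdh has the longest peak and the highest fold (2239 bp, fold 6.20).

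The genes examined for uptake and priming, Slc2a1 and Hk2, are the longest of the 10 and had small covered shares. Sparse peaks were not particular to them, since Pgk1 also had only 1 peak. Slc2a1, the transporter known as GLUT1 that lets glucose into the cell, spans 28586 bp on chromosome 4 (119108745 to 119137330). It had 1 peak of 230 bp, from 119114518 to 119114747, which began 5773 bp into the gene, with a fold of 3.59, a pileup of 9 and an FDR of 0.04997. Fold is the authors' enrichment of a peak, a ratio whose background is not named, and pileup is the height of the signal. This peak covered 0.805% of the gene, the lowest share among the 9 genes with a peak.

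Hk2, the hexokinase that traps glucose by phosphorylation, is the longest of the genes with 49430 bp on the minus strand of chromosome 6 (82725025 to 82774454). One of its 2 peaks was 244 bp long and lay 714 to 957 bp after the transcript start, with a fold of 3.84 and an FDR of 0.00404. The other, of 226 bp and with an FDR of 0.159, lay at 79.8% of the gene's length. The better supported Hk2 peak was thus the one near the start, and both together covered 0.951% of the gene.

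Aldoa and Tpi1 serve the steps that form and interconvert the trioses, and no difference between them was tested. Aldoa, the aldolase that cleaves fructose bisphosphate, occupies 5761 bp of chromosome 7 (126795234 to 126800994). It had no peak in the gene or its flanks in either list, and it is shorter than 7 of the other 9 genes. The OSS_128167 peak nearest to it lay 10464 bp away, with an FDR of 0.04997, beyond Ppp4c. Tpi1, the triose phosphate isomerase, is the shortest gene with 3573 bp on the minus strand of chromosome 6 (124810586 to 124814158). It had 6 peaks, 3 of them inside. The first inside peak, 257 bp long, began 100 bp after the transcript start and had the highest pileup of the 6, at 24, but a fold of 2.43 and an FDR of 0.0422. The other inside peaks had folds of 2.80 and 2.84 and FDRs of 0.0563 and 0.112. Of the 3 outside, a pair after the gene lay within Spsb2, and 1 before it within Usp5, so they could belong to those genes. Supported peaks alone covered 7.19% of Tpi1, against 28.8% for all its peaks.

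Gapdh spans 4616 bp on the minus strand of chromosome 6 (125161852 to 125166467). Its main peak, from 125163470 to 125165708, was 2239 bp long, with a fold of 6.20, a pileup of 34 and an FDR of 1.03e-14. It began 65 bp after the transcript start of the promoter table and ended inside the gene. By fold it ranked at 147 of 40748 peaks, and 99.6% of the list's peaks were shorter. A further peak of 306 bp, with a fold of 3.31 and an FDR of 0.0052, lay 547 bp past the gene end and within Iffo1. Gapdh was more covered than 99.3% of protein-coding genes. Among the 13025 genes of like length it ranked at 52 by covered share, between Slc38a2 (49.3%), an amino acid transporter, and Hspa5 (48.3%), a chaperone of the endoplasmic reticulum. The next on either side were Ptrh2 (49.9%) and Csf1 (46.5%), which encodes a growth factor of macrophages. These genes are alike in covered share in 1 library only.

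The payoff steps from phosphoglycerate to pyruvate had their best supported peaks in the later part of the gene or past its end. Pgk1, the phosphoglycerate kinase that forms ATP, spans 16600 bp of the X chromosome (106187100 to 106203699). Its only peak was 280 bp long and lay at 98% of the gene's length, with a fold of 3.59 and an FDR of 0.04997. No peak was listed near its start.

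Pgam1, the phosphoglycerate mutase, spans 6795 bp of chromosome 19 (41911871 to 41918665). The inside peak, of 423 bp, had a fold of 2.77 and an FDR of 0.191. The supported one, of 1060 bp with a fold of 3.55 and an FDR of 0.0114, lay 2457 bp past the gene end and touched no annotated gene. A last peak, 4085 bp past the end, overlapped Exosc1 and had an FDR of 0.966.

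Eno1, the enolase, spans 12172 bp of chromosome 4 (150236708 to 150248879). Its inside peak of 267 bp lay at 70.2% of the gene's length, with a fold of 4.67, a pileup of 12 and an FDR of 0.000406. A pair of peaks followed at 193 and 2074 bp past the gene end, with folds of 3.23 and 3.59 and FDRs of 0.159 and 0.04997, and no annotated gene lay within 5 kb of Eno1. These peaks therefore had no annotated neighbour to which they could be assigned.

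Pkm, the pyruvate kinase, spans 22797 bp of chromosome 9 (59656576 to 59679372). The inside peaks had folds of 2.75 and 2.67 and FDRs of 0.377 and 0.202. The supported peak, of 1069 bp with a fold of 4.21 and an FDR of 0.00111, began 902 bp past the gene end and lay within Gramd2, which runs in the same direction. No supported peak lay inside Pkm, whose covered share then was 0%.

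Ldha, the lactate dehydrogenase subunit that favours the formation of lactate, spans 13354 bp of chromosome 7 (46842274 to 46855627) and had 6 peaks. The longest, from 46845752 to 46847416, was 1665 bp long and covered both transcript starts of the promoter table, with a fold of 4.31, a pileup of 20 and an FDR of 1.14e-05. Of the 10 genes Ldha alone had a peak that covered a transcript start. A second inside peak of 322 bp had a fold of 3.91 and an FDR of 0.0052, and the last inside peak had an FDR of 0.183. The peak of highest fold, 5.29, was 306 bp long, had an FDR of 1.28e-05 and lay 181 bp past the gene end, within the long noncoding RNA gene Gm39011, which runs in the opposite direction. A pair of weaker peaks followed in the same gene, with FDRs of 0.496 and 0.676. These peaks past the end of Ldha and those of Gm39011 cannot be told apart.

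**Figure D2:**
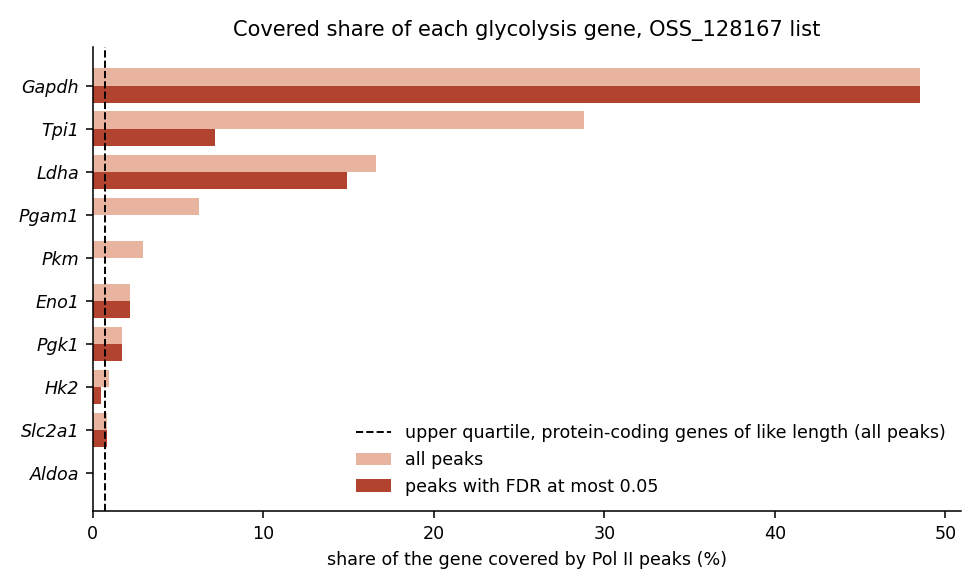
Share of each gene, in percent of its length (x axis), that lay in Pol II peaks of the OSS_128167 library, with all peaks in light bars and supported peaks (FDR at most 0.05) in dark bars. The dashed line is the upper quartile of protein-coding genes of like length with all peaks (0.738%), so it is a reference for the light bars only. With all peaks Gapdh, Tpi1 and Ldha stand above 10%, with supported peaks Gapdh and Ldha do, and the Pkm and Pgam1 shares go to 0% with supported peaks.

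The median covered share of the 10 genes was 2.57%, against a median of 0% and an upper quartile of 0.528% over all protein-coding genes. In order of covered share Gapdh was followed by Tpi1, Ldha, Pgam1 (6.23%), Pkm (2.94%), Eno1 (2.19%), Pgk1 (1.69%), Hk2 (0.951%), Slc2a1 (0.805%) and Aldoa (0%). With supported peaks alone the order changed and the median was 1.25%. Ldha, at 14.9%, then came before Tpi1, at 7.19%, and Eno1, Pgk1, Slc2a1 and Hk2 (0.494%) came before Pgam1 and Pkm, which stood at 0% with Aldoa. With 1 library no neighbours in either order can be said to differ. Covered shares of at least 10% were found in 3.06% of protein-coding genes and in 3 of the 10 with all peaks, and Tpi1 was under 10% with supported peaks.

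The 27 peaks at the glycolysis genes lay above the middle of their list in fold and in length. The folds ran from 1.87 to 6.20 with a median of 3.23, against 2.87 for the whole list, and the median length was 338 bp, against 278 bp. Of the 27 peaks 14 (51.9%) were supported, against 16.1% of the whole list. Peaks of at least 1000 bp made up 1.82% of the list and numbered 4 of 27 here, at Gapdh, Ldha, Pkm and Pgam1. The last 2 of these lay past the end of their gene.

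**Figure D3:**
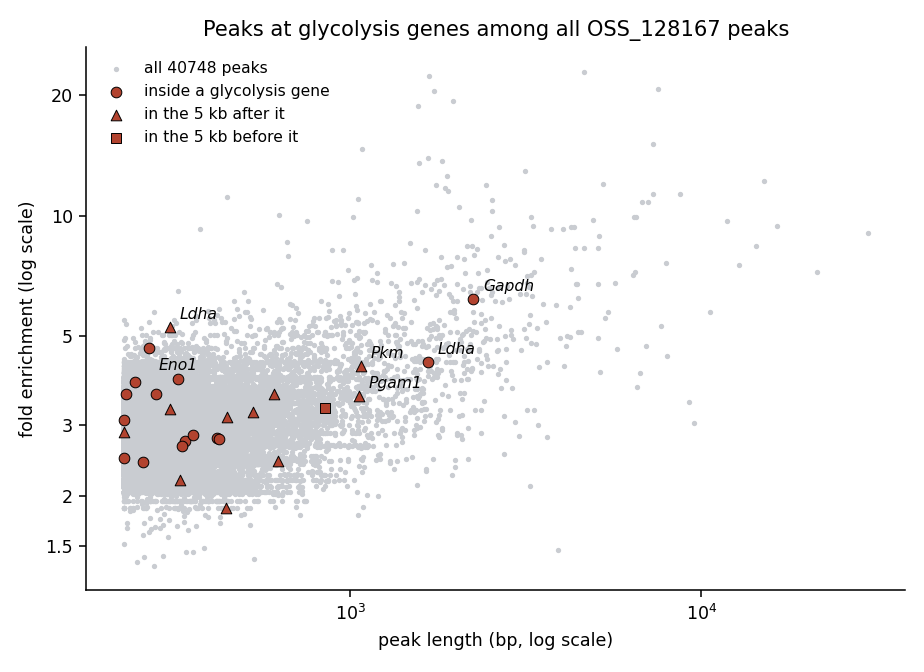
Fold enrichment (y axis, log scale) against length in bp (x axis, log scale) of all 40748 peaks of the OSS_128167 list, in grey, with the 27 peaks at the glycolysis genes in red. Circles lie inside a gene, triangles in the 5 kb after it and the square in the 5 kb before it. The inside peaks of Gapdh and Ldha are long, while the peak past the end of Ldha is short and of high fold.

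Peaks lay inside the genes and in the 5 kb after them, and rarely before them. Of the 27 peaks 15 were inside, 11 after and 1 before. Inside the gene 9 of 10 genes had a peak, against 34.4% of protein-coding genes, and 7 a supported one, against 9.97%. In the 5 kb after the gene 6 of 10 had one (Gapdh, Ldha, Pkm, Eno1, Tpi1 and Pgam1), against 20.4%, and the same 6 a supported one, against 7.43%. In the 5 kb before the gene 1 had one, Tpi1, against 8.01%, and 0 a supported one, against 2.48%. Protein-coding genes as a whole thus also had peaks after the gene more often than before it. The peaks after the genes began 181 to 4085 bp past the end, and 7 of the 11 began within 1 kb of it. Of these 11, 8 touched another annotated gene, and the 3 that did not belonged to Eno1 and Pgam1. With the FDR limit at 0.049, just under the tie, 5 genes had a peak inside, against 8.08%, and 5 had one after, against 6.6%.

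Within 1 kb of a transcript start 4 of the 10 genes had a peak, namely Gapdh, Ldha, Tpi1 and Hk2. All 4 had a supported peak there, and the shares of 17492 protein-coding genes with a start in the promoter table were 5.7% with any peak and 2.43% with a supported one. Within 500 bp the count was 3, without Hk2. At Ldha the peak lay over the start and at the other genes after it.

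**Figure D4:**
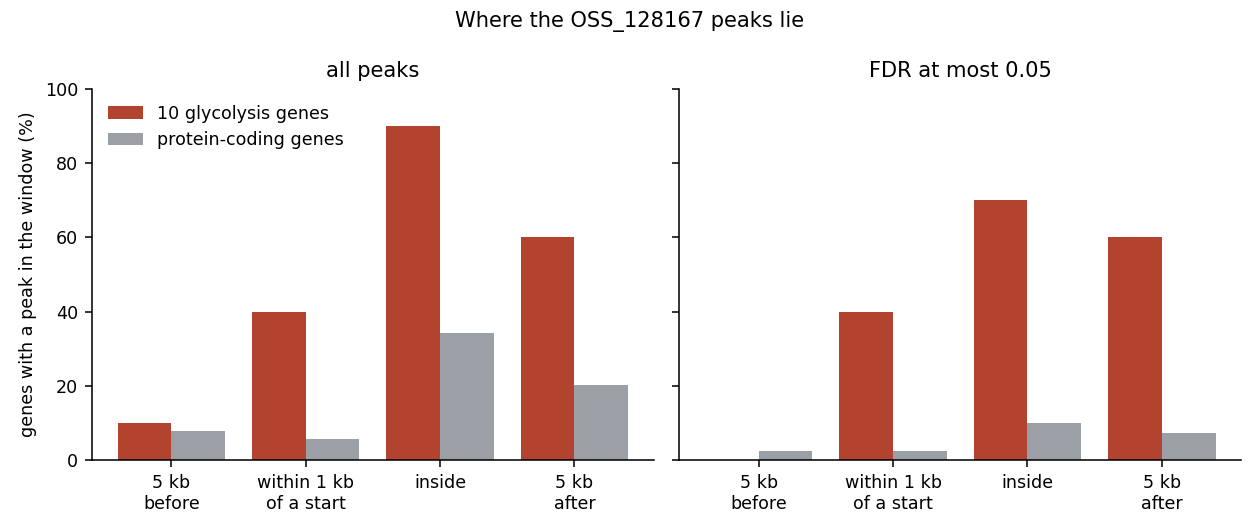
Share of genes in percent (y axis) with an OSS_128167 peak in each of 4 windows (x axis), for the 10 glycolysis genes in red and for protein-coding genes in grey, with all peaks on the left and supported peaks on the right. The glycolysis bars stand at 90% inside and 60% after the gene on the left, and at 70% and 60% on the right.

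The sequence before the transcript start is shown for the 4 genes on which these start counts turn, Ldha, Gapdh, Tpi1 and Hk2, and for Pgk1, which had no start peak. The letters ACGTG and GCGTG, in capitals on either strand, are the core of the element that HIF binds, and CACGTG is also the E-box read by MYC and related factors. Each line gives the 250 bases before the start, 5′ to 3′ along the gene, from RefSeq on GRCm38.p6. The windows are chr7:46845554-46845803 on the plus strand, chr6:125165774-125166023 on the minus strand, chr6:124814159-124814408 on the minus strand, chr6:82774455-82774704 on the minus strand and chrX:106186850-106187099 on the plus strand.
Ldha: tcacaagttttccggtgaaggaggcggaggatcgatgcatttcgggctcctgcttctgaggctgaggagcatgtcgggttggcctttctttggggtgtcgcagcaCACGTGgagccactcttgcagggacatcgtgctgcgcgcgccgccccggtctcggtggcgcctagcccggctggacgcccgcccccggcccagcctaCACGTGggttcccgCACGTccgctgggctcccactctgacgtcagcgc
Gapdh: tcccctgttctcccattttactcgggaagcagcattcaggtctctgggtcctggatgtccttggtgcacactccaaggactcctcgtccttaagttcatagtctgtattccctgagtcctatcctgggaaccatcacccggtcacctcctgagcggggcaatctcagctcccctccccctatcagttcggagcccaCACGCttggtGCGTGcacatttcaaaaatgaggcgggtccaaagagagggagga
Tpi1: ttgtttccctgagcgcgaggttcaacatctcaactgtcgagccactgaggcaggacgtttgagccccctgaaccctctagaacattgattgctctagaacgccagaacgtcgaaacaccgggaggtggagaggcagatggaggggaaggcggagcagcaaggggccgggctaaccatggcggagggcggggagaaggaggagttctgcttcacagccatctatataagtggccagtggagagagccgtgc
Hk2: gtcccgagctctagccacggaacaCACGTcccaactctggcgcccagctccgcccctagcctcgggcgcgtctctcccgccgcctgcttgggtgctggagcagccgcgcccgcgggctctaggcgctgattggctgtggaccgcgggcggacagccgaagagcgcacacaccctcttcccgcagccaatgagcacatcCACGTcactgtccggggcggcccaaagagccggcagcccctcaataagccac
Pgk1: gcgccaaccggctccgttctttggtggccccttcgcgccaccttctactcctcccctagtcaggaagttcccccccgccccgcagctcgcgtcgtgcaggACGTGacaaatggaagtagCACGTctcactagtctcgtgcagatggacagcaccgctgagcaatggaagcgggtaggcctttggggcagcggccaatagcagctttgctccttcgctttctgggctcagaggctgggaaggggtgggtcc

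Ldha has 2 starts in the promoter table, and the window printed is that of the first. It held CACGTG from -145 to -140 and from -48 to -43 and CACGT from -34 to -30, counted back from that start. The long Pol II peak of Ldha reached 52 bases into this window, over the last CACGTG and the CACGT. The window of the other start, not printed, held CACGC from -59 to -55, and all its 250 bases lay in that peak. Gapdh held GCGTG letters on each strand, from -54 to -50 and from -44 to -40, and Hk2 held CACGT from -226 to -222 and from -52 to -48. Tpi1 held neither motif. None of these 3 windows was reached by a peak. Pgk1 held ACGTG letters on each strand, from -150 to -146 and from -131 to -127, without a peak near the start. All 10 genes matched the promoter table, with 16 windows, some of which overlap. At least 1 of the 2 motifs was found in 13 windows, of 9 genes, ACGTG in 8 windows, of 7 genes, and GCGTG in 7 windows, of Gapdh, Ldha, Eno1, Pgam1 and Slc2a1. Over 21263 windows of protein-coding genes 44% held at least 1 of them, 17.8% ACGTG and 33.8% GCGTG. The median GC content was 65.2% in the 16 windows and 55.6% over all, and its part in these shares was not tested. Tpi1 was the only one of the 10 genes with neither motif.

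The 14 other glycolysis genes had OSS_128167 peaks at shares near those of all protein-coding genes. Their median length was 40035 bp, against 12763 bp for the 10 genes above. Of these 14 genes 8 (57.1%) had a peak, against 46.7% of protein-coding genes, and 1 (7.14%) a supported one, against 15.6%. This was Pfkfb2, which makes the activator of phosphofructokinase. Its peak had a fold of 3.95 and an FDR of 0.012 but lay outside the gene, over AA986860. Adpgk and Pgm2 had folds of 3.23 and FDRs of 0.159, and Pfkfb3 a fold of 2.81 and an FDR of 0.348. Of 16 paralogs and relatives restricted to tissues such as liver, muscle, brain or testis, 4 had a peak and 1 a supported one. That was the muscle enolase gene Eno3, whose peak (3.50, FDR 0.0304) also overlapped Pfn1. The others were Hkdc1 (3.05, FDR 0.162), the testis gene Pgk2 (2.54, FDR 0.532) and Ldhc (2.44, FDR 0.496), whose peak was one of those past the end of Ldha.

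Among genes that handle the products of glycolysis, 12 of 17 lactate and pyruvate genes had a peak, against 46.7% of protein-coding genes. Supported peaks were found at 4, namely Slc16a3, Bsg, Pdk2 and Pdk4, against 15.6%. Slc16a3, the lactate exporter known as MCT4, had an inside peak with a fold of 3.50 and an FDR of 0.02, and Bsg, which brings that transporter to the membrane, a peak of 3.57 and FDR 0.00676 in its flank. Pdk4, a kinase that shuts off pyruvate dehydrogenase, had the best supported inside peak of the list, with a fold of 3.32 and an FDR of 3.74e-05, and Pdk2 one in its flank over Samd14 (3.77, FDR 0.00852). Of 6 other glucose transporters 5 had a peak and 1 a supported one, Slc2a3, with a fold of 3.57 and an FDR of 0.0364 outside the gene. The next were Slc2a8 (3.52, FDR 0.0548), Slc2a12 (3.23, FDR 0.159) and Slc2a6 (2.87, FDR 0.377).

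In the pentose phosphate branch 4 of 7 genes had a peak and 0 a supported one, against 46.7% and 15.6% of protein-coding genes. The highest fold, 3.23, was at G6pdx, whose peak also lay over Ikbkg. The rest were Pgls (2.87), Rpia (2.76) and the transketolase gene Tkt (2.52). In the tricarboxylic acid cycle 11 of 16 had one and 2 a supported one. These were Idh3b and the citrate synthase gene Cs (3.18, FDR 0.00267), whose supported peak lay over Coq10a. Idh3b had 5 peaks, all 5 supported and 3 of them inside, and was covered over 33.2%. The Idh3b peak of highest fold (4.78, FDR 1.07e-05) lay in the flank over Nop56, and the highest inside had 3.84 and 0.00404. Sdhd (3.31, FDR 0.071) and Ogdh (3.05, FDR 0.162) followed. Of 7 gluconeogenesis genes 2 had a peak and 0 a supported one, with Pck2 at 3.31 (FDR 0.071) and Pcx at 2.51 (FDR 0.572).

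Of 8 regulators of the HIF pathway 4 had a peak and 3 a supported one, against 46.7% and 15.6% of protein-coding genes. Hif1a itself had 6 peaks, of which 3 were supported. The highest (3.91, FDR 0.0052) was in its flank over Gm15283, and the highest inside had 3.59 and 0.04997. The prolyl hydroxylase gene Egln2 (3.59, FDR 0.04997) and Hif1an (3.42, FDR 0.0258) counted through flank peaks, and Egln1 had 2.55 at an FDR of 0.511. Of 20 further HIF targets outside glycolysis 10 (50%) had a peak, near the share of all protein-coding genes, and 5 (25%) a supported one. These were Ddit4, an inhibitor of mTOR signalling, covered over 71.9% with a flank peak of 4.58 (FDR 1.26e-05), P4ha2, a collagen prolyl hydroxylase (3.94, FDR 0.00775), Bhlhe40, a transcription factor (3.87, FDR 0.00132), Bnip3l, a mitophagy receptor, with a flank peak of 3.76 (FDR 0.0205), and the angiogenic factor gene Vegfa, with a flank peak of 3.48 (FDR 0.021).

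Of 7 regulators of glycolysis 5 had a peak and 3 a supported one, against 46.7% and 15.6% of protein-coding genes. These were Myc, an activator of glycolysis genes, covered over 54.9% (inside fold 4.81, FDR 3.7e-05), Txnip, which restrains glucose uptake, covered over 77.6% (inside fold 2.82, FDR 0.00111), and Prkaa2 (3.42, FDR 0.0179). Prkaa1 had a flank peak of 3.07 at an FDR of 0.159. Sirt6 had 0 peaks in either list.

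In the untreated list 4 of the 118 genes on these 10 lists had a peak, against 2.71% of protein-coding genes. They were the monocarboxylate transporter gene Slc16a7 with 3 peaks, Kdm3a, a histone demethylase, with 2, and Ogdh and Arnt, the partner of HIF1A, with 1 each. The folds ran from 2.97 to 3.54 and the FDR was 1 for all of them.

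**Figure D5:**
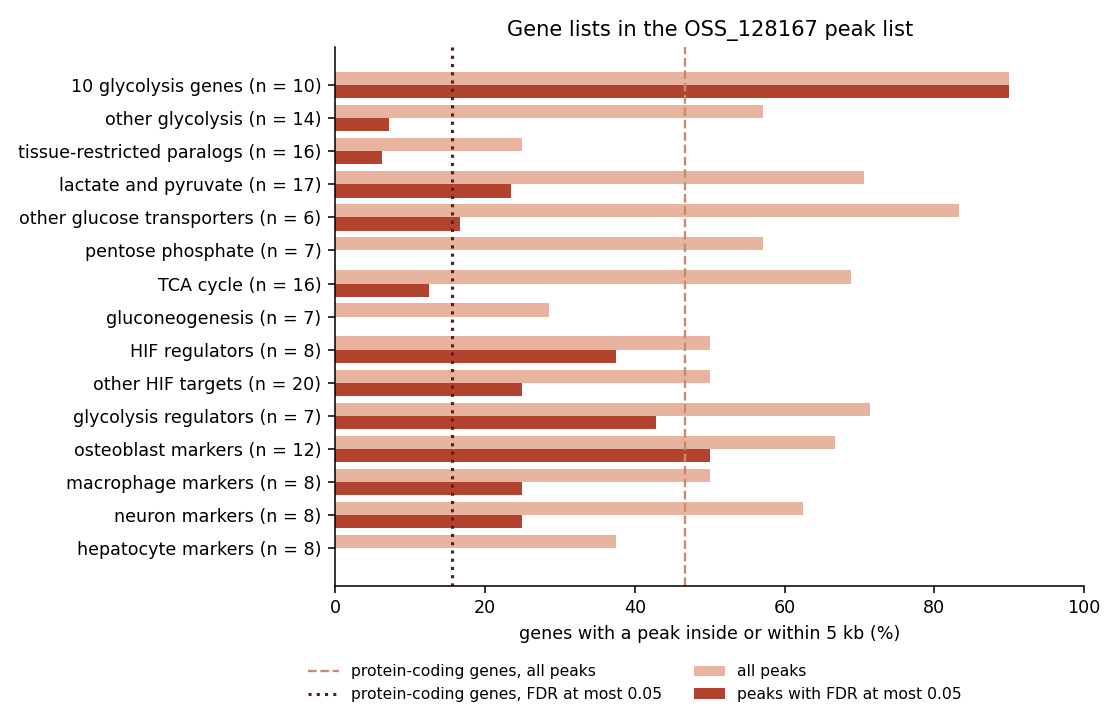
Share of genes in percent (x axis) with an OSS_128167 peak inside or within 5 kb, for the 10 glycolysis genes, 10 related lists and 4 marker lists, with all peaks in light and supported peaks in dark. Lines give the shares of all protein-coding genes, 46.7% (dashed) and 15.6% (dotted). The dark bar of the 10 glycolysis genes is at 90%, and those of the 7 other lists of metabolic enzymes and transporters run from 0% to 23.5%. Dark bars are at 25% for other HIF targets, 37.5% for HIF regulators and 42.9% for glycolysis regulators. Those of the marker lists run from 0% (hepatocyte) to 50% (osteoblast).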

How the data were processed

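Per the submitters' processing notes, fastp and BWA were used, with mm10 as the genome. How peaks were called, and how the inputs were used, is not given in the sources used here. For each Pol II library the deposited list gives every peak's fold (a ratio), p-value, FDR and pileup (a signal height), per the file headers. Untreated pileups were not all whole numbers, the smallest being 4.35, and their scaling is not named. No read totals are given, so depth is unknown, and the values of single peaks were ranked within their own list only. Counts of peaks and shares of supported peaks were set side by side between the lists, without a test.

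Gene boundaries came from RefSeq on GRCm38.p6, and strands and starts from its promoter table. Covered shares used merged peaks. Python 3.11.15, numpy 2.4.6, pandas 2.3.3 and matplotlib 3.10.9 were used. Tested on simulated data, the overlap counting found 50 of 50 planted peaks. This checks the counting only, not how peaks were called. The genes and lists were chosen with earlier results of these data known. Named were the 10 glycolysis genes, up to 4 genes of highest fold per related list, genes with an untreated peak, Sirt6, Hif1a and the 2 genes next to Gapdh on either side by covered share. Other genes, such as Vegfa, the markers and those that a peak also touched, were named after their values were seen. The windows before and after genes and the FDR limit of 0.049 were added after the data were seen. Alternatives changed the FDR limit, the flank, the start window and the rule of overlap.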

Additional observations from a re-analysis of the deposited data

How the results depend on the processing

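The count of 9 genes with a peak in the OSS_128167 list held with no flank, with a flank of 1 kb, with the peak centre and with at least 50% of the peak inside, and the count of 0 in the untreated list held under each alternative run. At an FDR of at most 1e-05 the count was 1, and for peaks inside the gene at an FDR of at most 0.049 it was 5. The median covered share was 1.25% at an FDR of at most 0.05 and 3.96% with a flank of 1 kb. The 27 peaks at these genes became 14 at an FDR of at most 0.05 and 11 at one of at most 0.049. The 65 genes of the related lists with a peak became 20 at an FDR of at most 0.05 and 43 with no flank, and the 4 in the untreated list became 0 at that FDR limit. Stricter limits and narrower flanks leave fewer peaks by construction. No paired analysis was possible because each condition had 1 Pol II library and the titles carry no replicate numbers. The lists hold no depth, so sites under the calling threshold cannot be seen in either list.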

Other observations

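Copies named for Ldha, Pgk1, Tpi1, Aldoa, Pgam1, Gapdh and Eno1 are annotated elsewhere in the genome, their sequences were not compared here, and how the authors placed reads that match several sites is not known here. The search by name found 24 annotated copies, such as Ldha-ps, Tpi-rs2, Gapdh-ps14 and the retrogenes Aldoart1 and Eno1b. Most are annotated as pseudogenes. Of the 24, 3 had an OSS_128167 peak inside or within 5 kb, against 46.7% of protein-coding genes, and 0 an untreated one, against 2.71%. The 3 were Pgam1-ps2 (fold 3.23, FDR 0.159), Pgam1-ps1 (2.72, FDR 0.377), the only one with a peak inside it, and Pgk1-rs7 (2.52, FDR 0.676). No copy of Gapdh, Ldha, Tpi1, Eno1 or Aldoa that was found had a peak. Copies annotated under other names were not searched.

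The first OSS_128167 peaks beyond the 5 kb flanks lay 5389 bp from Pgam1 (fold 2.66, FDR 0.377) and 5476 bp from Gapdh (fold 2.68, FDR 0.31), and those of the remaining 8 genes lay 10464 to 122290 bp away.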
